A study of Drosophila melanogaster with 48 samples.

Results

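The maltase and amylase-related genes described here are 10 Drosophila melanogaster genes: Mal-A1, Mal-A2, Mal-A3, Mal-A4, Mal-A6, Mal-A7, Mal-A8, Mal-B1, Mal-B2 and Amyrel. They were taken by gene symbol from the platform annotation, and each has 1 probe set, so that the set holds 10 of the 18952 probe sets on the array, and 10 of the 11982 genes that a probe set names singly. All 10 passed the filter on weak signals, which kept 11261 probe sets. Apart from Amyrel they lay well inside it, with mean log2 signals over 48 arrays from 9.31 for Mal-B1 to 12.51 for Mal-A1, between the 76.7th and the 97.9th percentile of all non-control probe sets. Amyrel, at 5.99, lay just above the lowest mean kept, 5.90, and is the member whose values carry the most doubt. In the RefSeq gene table Mal-A1 to Mal-A8 stand next to each other in numerical order with no other gene between them, and Mal-B1 stands next to Mal-B2. Mal-A5, the remaining gene of the first cluster, is not in the set and is given beside it.

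Maltases are alpha-glucosidases that cut maltose and other short starch fragments into glucose, the last step of starch digestion before sugar enters the gut cells. In the fly they are made mainly by the midgut, where amylase first cuts starch into maltose, and carbohydrate-digesting enzymes of the fly gut are known to fall when the diet is rich in sugar. Amyrel encodes a distant relative of the classical amylases.

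Whole-body RNA came from adults of 8 numbered lines (158, 304, 362, 379, 380, 774, 786 and 859). Their larvae had eaten a standard cornmeal and molasses food, that food with 9% ethanol added, or that food with tomato paste added, called standard, ethanol and tomato medium below. With 2 arrays for every line on every medium there are 24 combinations, 16 arrays per medium and 6 per line. All adults were kept on standard medium at 25 °C with 12 hours of light and 12 of dark before RNA was taken. A difference due to the larval diet would therefore be one that outlasted that diet. Neither the origin of the lines nor the sex of the flies is stated, and an age (3 to 5 days) is stated for 4 arrays. Whether both arrays of a combination stem from different cultures is not stated either, so p-values that rest on their spread measure only the spread between these arrays, which may be technical.

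Some arrays stood apart by the form of their title. A hyphen stands before the array number in the titles of 11 tomato, 4 ethanol and 0 standard arrays, and a space in all others, so the title form and the medium are partly confounded. In lines 158, 362, 379, 786 and 859 the tomato arrays are 1 of each form. Chorion and vitelline membrane genes of the ovary differed with it: their mean log2 signal over 11 of 12 listed genes was 11.86 to 13.24 in the space-titled arrays of those 5 pairs and 4.32 to 10.82 in the hyphen-titled ones. Over media, this eggshell level was 12.59 ± 0.30 on standard, 11.32 ± 1.98 on ethanol and 10.70 ± 1.10 on tomato medium (SD, n = 8 lines). Serine proteases of the midgut were at 11.73 ± 0.37, 11.49 ± 0.40 and 11.63 ± 0.40 over 19 of 24 listed genes, so the defining markers of that tissue were present on all media. Levels below are log2 signals, and a gene is called changed when its limma p, adjusted over all 11261 probe sets by the method of Benjamini and Hochberg, is under 0.05.

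All 10 genes had a higher mean on tomato than on standard medium, and the difference passed the test for 1 of them, Mal-A2, a maltase gene of the first cluster. Its 16 standard arrays ran from 8.63 through a median of 9.47 to 10.26, and its 16 tomato arrays from 7.92 through 10.17 to 11.64. The highest tomato arrays exceeded every standard array while the lowest lay below every standard array, so the groups overlapped. The mean of the lines was 9.39 ± 0.46 (SD, n = 8) for standard medium and 10.07 ± 0.61 (SD, n = 8) for tomato medium, a difference of 0.68 (SE 0.16) or 1.60-fold, higher in 8 of 8 lines (adjusted p = 0.046 with limma). Among all tested probe sets, 1.15% were called in this comparison and 0.817% were called higher. In these whole-body samples, a change in the number of gut cells and a change in RNA per cell cannot be told apart.

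The other 9 genes did not pass. At an unadjusted p under 0.05, all 10 members stood higher, against 10.9% of all probe sets, and the median difference of the 10 was 0.68 against -0.01 over all probe sets. In 9 of the 10, all but Amyrel, the tomato mean exceeded the standard mean in 8 of 8 lines, as it did for 2.59% of all probe sets. The members lie close together and are measured on the same arrays, so these counts are not 10 separate observations.

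Within the first cluster, Mal-A4 had the largest mean difference. Its standard arrays ran from 8.06 through a median of 9.03 to 10.88 and its tomato arrays from 7.59 through 10.18 to 12.41, with the same wide overlap as Mal-A2. The difference was 0.96 (SE 0.27, adjusted p = 0.082 with limma). Mal-A7 followed at 0.81 (SE 0.23, adjusted p = 0.082), then Mal-A3 and Mal-A8 at 0.68, Mal-A1 at 0.46 (SE 0.14) and Mal-A6 at 0.44 (SE 0.15). These differences correspond to 1.36-fold to 1.95-fold.

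In the second cluster, Mal-B1 ran from 6.72 through 9.20 to 10.09 on standard medium and from 6.43 through 9.66 to 11.86 on tomato medium. Its mean difference of 0.95 had an SE of 0.30 (adjusted p = 0.099 with limma), with line differences from 0.24 to 1.99. Mal-B2 varied least among lines on standard medium, from 10.09 through 10.54 to 10.98, and ran from 10.22 through 10.82 to 12.42 on tomato medium. Its difference of 0.48 (SE 0.13, adjusted p = 0.068) was the second smallest in p among the members.

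Amyrel ran from 4.50 through 5.85 to 7.50 on standard and from 4.46 through 6.10 to 9.59 on tomato medium. The mean difference was 0.57 (SE 0.20, adjusted p = 0.13 with limma), higher in 6 of 8 lines. Most of its arrays lie near the weakest signals kept, and the upper end of the tomato range comes from a few arrays. Mal-A5, in the middle of the first cluster, had a mean difference of -0.16 (SE 0.06, adjusted p = 0.15) and was lower on tomato medium in 8 of 8 lines.

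**Figure D1:**
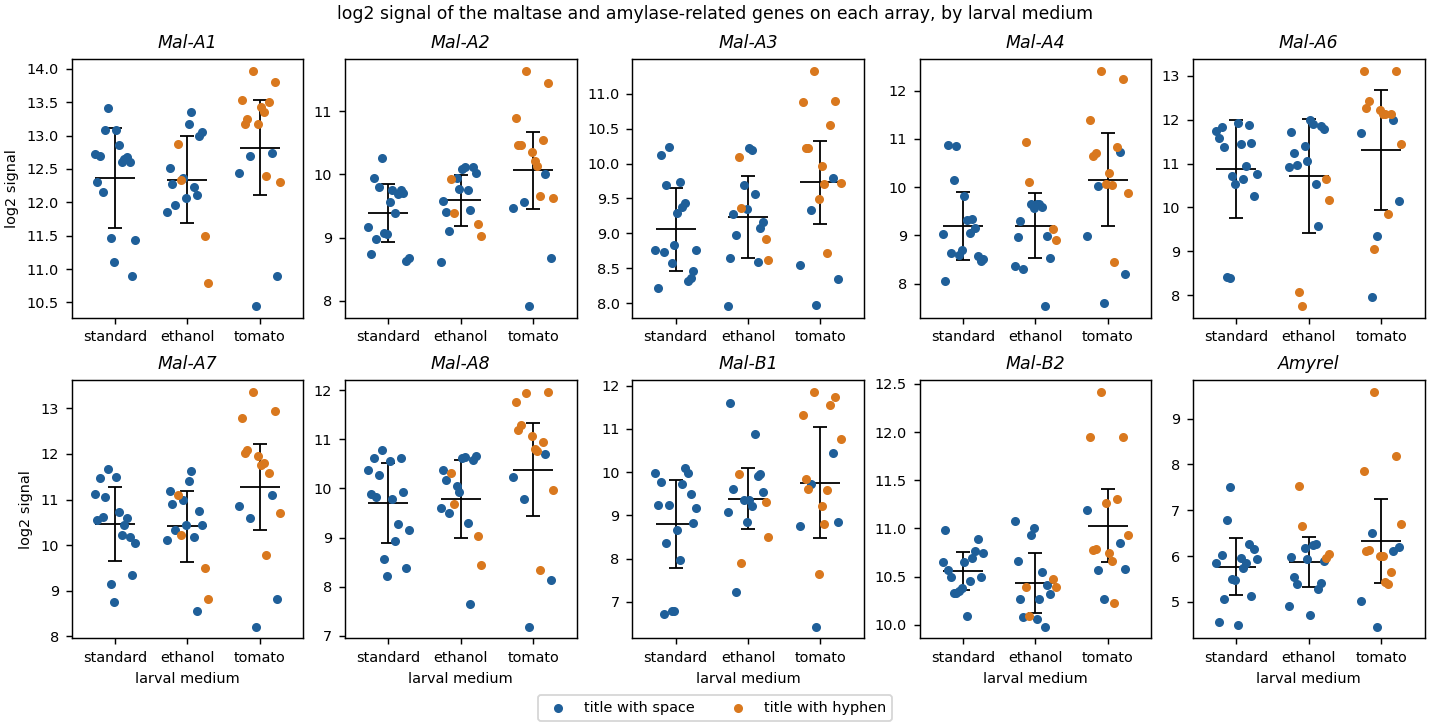
log2 signal (vertical axis) of each of the 10 genes on each of the 48 arrays, by larval medium (horizontal axis), with points coloured by whether the array title has a space or a hyphen; the horizontal bar is the mean of the 8 line means and the whiskers are their SD. The highest tomato points are nearly all hyphen-titled, while space-titled tomato points lie mostly within or below the standard range.

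Most of the highest tomato values came from hyphen-titled arrays. The counts that follow were not made over all probe sets, so there is no share to set beside them. They join genes measured on the same arrays and are not separate observations. Of the tomato values above the highest standard array, those of Mal-A2 numbered 7 of 11 hyphen-titled and 0 of 5 space-titled arrays, those of Mal-A7 and of Mal-A8 8 of 11 and 0 of 5, and those of Mal-A6 8 of 11 and 1 of 5. The lowest such count was 3 of 11, for Mal-A4 and Amyrel. In the 5 lines that hold both forms, the hyphen-titled tomato array lay above both standard arrays of its own line in 50 of 50 combinations of gene and line. The space-titled tomato array lay below both in 24, above both in 13 and between them in 13 of the 50. Over all 8 lines, hyphen-titled tomato arrays lay above both standard arrays of their line in 94 and below both in 10 of 110 combinations of gene and array, and 9 of those 10 came from tomato array 3 of line 774. The 4 hyphen-titled ethanol arrays, of lines 362 and 859, lay above both standard arrays of their line in 11 and below both in 18 of 40 combinations. Space-titled ethanol arrays lay above both in 53 and below both in 30 of 120. Both ethanol arrays of line 379, space-titled, lay above both standard arrays for 10 of 10 genes, with eggshell levels of 6.83 and 8.18. Space-titled ethanol array 2 of line 158, with an eggshell level of 5.40, did so for 5 of 10. The ethanol arrays of line 380, also space-titled, did so for 6 and 7 of 10, with eggshell levels of 11.84 and 12.27.

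The separation within pairs was largest for Mal-A7. Its hyphen-titled tomato arrays read 12.79 in line 158, 13.37 in 362, 11.96 in 379, 12.94 in 786 and 10.71 in 859. Its space-titled tomato arrays read 10.86, 10.60, 8.21, 11.09 and 8.82 in the same order. The hyphen-titled array was higher in every pair, by 1.85 to 3.75. The mean difference of 2.43 (SE 0.27) is a 5.41-fold gap between arrays that share line and medium (adjusted p = 0.0031 with limma).

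All 10 genes were called higher in the hyphen-titled arrays, against 17.9% of all probe sets, and all 10 were higher in 5 of 5 pairs, against 21.6%. The median difference of the 10 was 1.75, against 0.05 over all probe sets. Mal-A4 differed by 2.09 (SE 0.17), from 9.11 to 11.20, and Mal-A8 by 2.13 (SE 0.33), from 9.21 to 11.34. Mal-A3, Mal-A2, Mal-A6 and Mal-A1 differed by 1.67, 1.66, 1.56 and 1.52. Each of these first-cluster genes had an adjusted p of 0.0042 or less with limma, and each remained called when any 1 of the 5 pairs was left out.

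In the second cluster, Mal-B1 differed by 1.82 (SE 0.20), with hyphen-titled arrays at 11.31, 11.86, 7.64, 11.74 and 10.76 and space-titled arrays at 8.75, 9.72, 6.43, 10.45 and 8.85 in lines 158, 362, 379, 786 and 859. Both arrays of line 379 were below every array of the other lines, and its gap was the smallest of the 5, at 1.21, against 2.56 in line 158. Mal-B2 had the smallest gap, 1.01 (SE 0.19, adjusted p = 0.0062 with limma), from 0.35 in line 859 to 1.85 in line 362.

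Amyrel reached 9.59 on the hyphen-titled tomato array of line 362, a signal of 772, against 6.51 on the space-titled one, a signal of 91.4. Its mean gap of 2.01 (SE 0.36, adjusted p = 0.0052 with limma) ran from 0.52 in line 859 to 3.08 in line 362. Mal-A5 was not called. It read 10.97 on average in the hyphen-titled and 11.09 in the space-titled arrays, a difference of -0.12 (SE 0.13, adjusted p = 0.44), and was higher in 1 of 5 pairs. The difference between Mal-A5 and its neighbours was not itself tested.

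**Figure D2:**
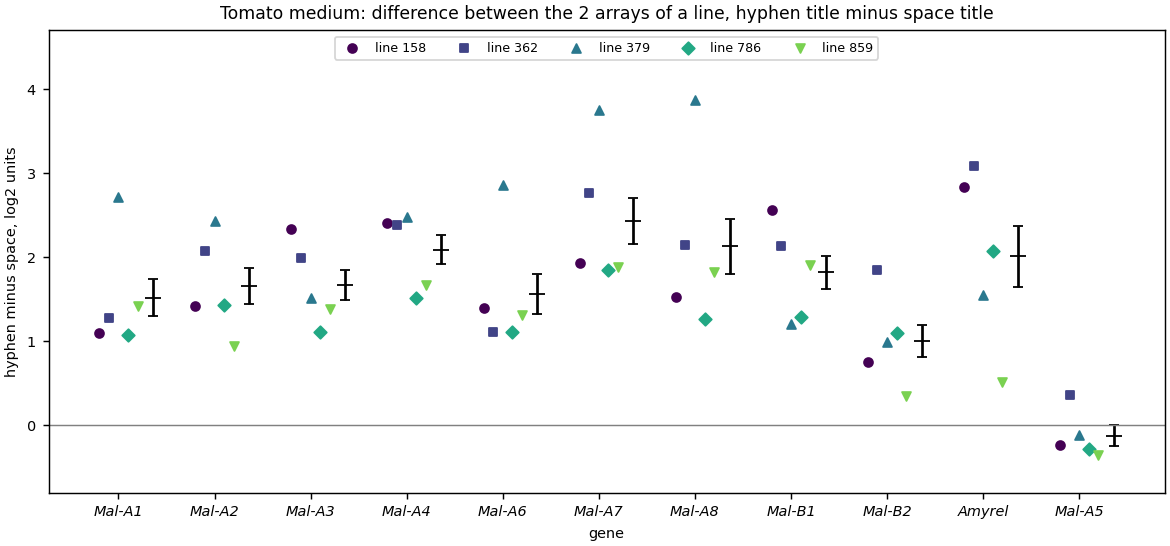
Difference in log2 signal between the hyphen-titled and the space-titled tomato array of a line (vertical axis) for the 10 genes and for Mal-A5 (horizontal axis); each symbol is 1 of 5 lines, and the black bar with whiskers is the mean and its SE from limma. All 50 symbols of the 10 genes lie above 0, whereas 4 of the 5 of Mal-A5 lie below it.

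Eggshell genes moved the other way in the same pairs: 9 of 11 were called lower in the hyphen-titled arrays, against 25.2% of all probe sets, and the median difference was -3.43. Midgut proteases had a median difference of 0.11, with 3 of 19 called higher against 17.9% of all probe sets, and the mean level of the 19 was 11.49 in the space-titled and 11.66 in the hyphen-titled arrays. Seminal fluid genes, made by the male accessory gland, were called lower in 8 of 13 cases, against the same 25.2%. Testis genes went the other way, with a higher mean in 10 of 11, 3 called higher against 17.9% of all probe sets, and 0 called lower. Between tomato and standard medium over all arrays, 2 of the 11 eggshell genes were called lower, Vm32E at -2.46 (SE 0.54, adjusted p = 0.037 with limma) and psd at -1.56 (SE 0.36, adjusted p = 0.045). In that comparison 1 of the 13 seminal fluid genes was called lower, Sfp26Ad at -0.46 (SE 0.10, adjusted p = 0.036), where 0.329% of all probe sets were called lower. Over the 48 arrays, after the mean of each line was subtracted, the correlation of a member with the eggshell level ranged from -0.78 for Mal-B1 to -0.55 for Mal-A6, while that with the midgut protease level ranged from 0.05 to 0.31; Mal-A5 had 0 with the eggshell level. These points share arrays, lines and media and the values are a description. The part of egg-producing tissue in the maltase differences was not tested.

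Line 774 gave a view of the gap inside the hyphen-titled arrays, since both of its tomato arrays have that form. Array 3 read 8.35 and array 4 read 10.94 for Mal-A8, and 9.79 and 11.59 for Mal-A7. The median absolute difference over the 10 genes was 1.82, as large as in the pairs of mixed titles, and all 10 genes were higher on array 4. For Mal-A8 and Mal-A7 array 3 lay below both standard arrays of the line, which read 8.93 and 9.27 for Mal-A8. The eggshell level was 12.30 on array 3 and 9.30 on array 4. In lines 304 and 380, whose tomato arrays are also hyphen-titled, the median absolute difference was 0.07 and 0.09. The eggshell level was 11.37 and 10.95 on arrays 3 and 4 of line 304, and 8.82 and 11.05 on those of line 380. In line 380 the eggshell levels thus lay far apart while the members did not.

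Among space-titled arrays alone, which keep 16 standard and 5 tomato arrays, no member was called different between tomato and standard medium, and 0 of all probe sets were. There Mal-A2 differed by -0.21 (SE 0.21, adjusted p = 0.56 with limma), Mal-A8 by -0.52 (SE 0.32), Mal-A7 by -0.45 (SE 0.34), Mal-A6 by -0.41 (SE 0.22) and Mal-A1 by -0.40 (SE 0.19). Amyrel was at -0.29 (SE 0.29), while Mal-A3, Mal-A4, Mal-B1 and Mal-B2 lay between -0.08 and 0.05. Thus 9 of the 10 differences were below 0, with standard errors larger than those of all arrays. Those of Mal-A3, Mal-A4 and Mal-B1 were far smaller than their SEs of 0.26, 0.39 and 0.45. The 10 genes share the same 5 tomato arrays, and the share of all probe sets below 0 was not computed. Without the 16 arrays whose eggshell level lay below the lowest standard array (11 of them tomato, 5 ethanol), a choice made after the data were seen, Mal-A2 differed by -0.14 (SE 0.18, adjusted p = 0.55). With the eggshell level as a covariate the differences ran from 0.08 for Amyrel to 0.47 for Mal-A4, and Mal-A2 was at 0.29 (SE 0.16, adjusted p = 0.37). Larval tomato medium and whatever the title form stands for cannot be told apart in the comparison of all arrays.

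**Figure D3:**
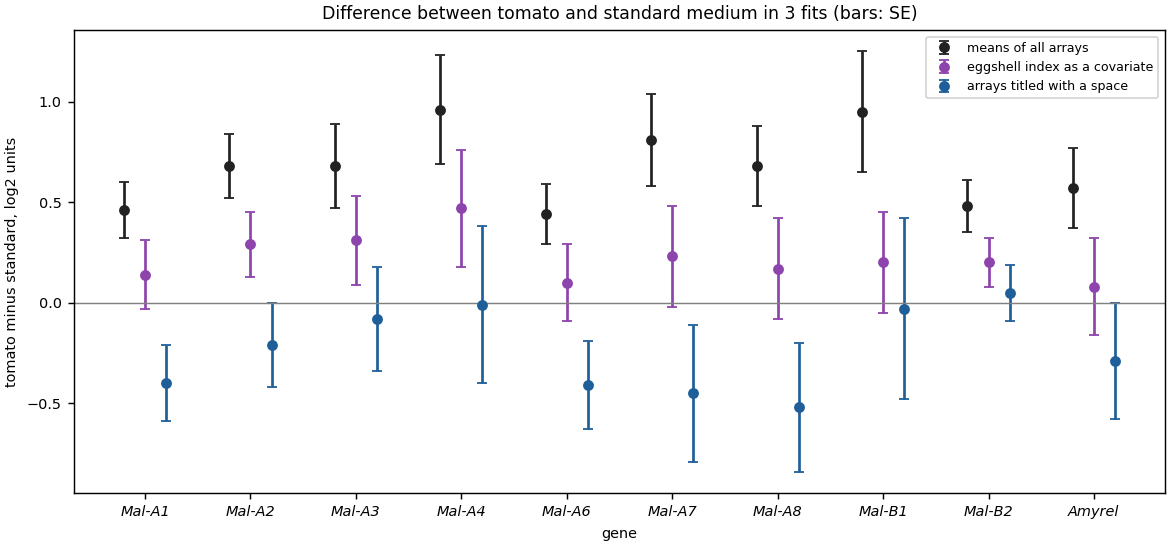
Difference in log2 signal between tomato and standard medium (vertical axis) for each of the 10 genes (horizontal axis) from 3 fits: the line means of all arrays, single arrays with the eggshell level as a covariate, and space-titled arrays alone; whiskers are SEs. All 10 differences are above 0 in the first 2 fits. In space-titled arrays 9 are below 0, those of Mal-A3, Mal-A4 and Mal-B1 by far less than their SE.

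A single line also weighed on the comparison of all arrays. The space-titled tomato array of line 379 gave the lowest value of the 48 for Mal-A1 (10.45), Mal-A2 (7.92), Mal-A7 (8.21), Mal-A8 (7.19), Mal-B1 (6.43) and Amyrel (4.46). Without line 379 all 10 genes passed the test, with differences from 0.45 for Mal-A1 to 1.07 for Mal-A4 and adjusted p from 0.0032 for Mal-A2 to 0.016. That fit called 2856 of the 11261 probe sets, against 129 with all lines. Without any 1 of the other 7 lines none passed, and Mal-A2 then differed by 0.60 to 0.71. The call of Mal-A2 was lost without any 1 of 22 of the 48 arrays, with differences from 0.53 to 0.81 and adjusted p up to 0.42, the last without the hyphen-titled tomato array of line 379.

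No maltase gene, nor Amyrel, was called different between ethanol and standard medium, where 0% of all probe sets were called. At an unadjusted p under 0.05 the count was 0 of 10, against 5.58% of all probe sets. Of the 10 means, 6 were higher on ethanol, and the median difference was 0.04, against 0 for all probe sets. Mal-B1 stood furthest out: its ethanol arrays ran from 7.23 through 9.35 to 11.59, overlapping the standard range of 6.72 to 10.09, and its mean was 0.59 higher (SE 0.30, unadjusted p = 0.064, adjusted p = 0.84 with limma) in 7 of 8 lines. Line 379 alone differed by 2.30, and the eggshell level of its ethanol arrays was 6.83 and 8.18. The highest value, 11.59, came from ethanol array 2 of line 158, with an eggshell level of 5.40. The remaining 9 genes differed by -0.15 for Mal-A6 to 0.21 for Mal-A2. With SEs of 0.13 to 0.30, small differences could not be resolved.

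Between tomato and ethanol medium, all 10 means were higher on tomato, with a median of 0.54 against -0.02 for all probe sets, and none was called, where 0.107% of probe sets were. At an unadjusted p under 0.05, 9 of 10 were higher, against 4.36% of all, and 7 of 10 were higher in at least 7 of 8 lines, against 3.78%. Mal-B2 had the smallest p, with ethanol arrays from 9.98 through 10.39 to 11.08 and a mean difference of 0.60 (SE 0.13, adjusted p = 0.089 with limma). Mal-A6 differed by 0.59 (SE 0.15, adjusted p = 0.17) and Mal-A4 by 0.96 (SE 0.27). Mal-B1, which was higher on ethanol than on standard medium, differed by 0.37 (SE 0.30, unadjusted p = 0.23). Without line 379, 7 of the 10 were called higher on tomato. That fit called 376 of the 11261 probe sets, against 12 with all lines. The form of the titles differs here too, since 4 ethanol and 11 tomato arrays carry the hyphen. The 3 media comparisons share arrays and are not separate evidence.

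Most of these genes differed among lines. Averaged over media, 9 of the 10 genes were called different among the 8 lines, all but Mal-B2, where 61.8% of all probe sets were called. The line means of these 9 spanned 1.20 to 3.74 log2 units, against a median range of 0.75 over all tested probe sets. The title forms are spread unevenly over the lines, so these means and their error also carry the gap between forms. In space-titled arrays alone 8 of the 10 were called, all but Mal-A4 and Mal-B2, where 7958 of the 11261 probe sets were called. With 1 array left out at a time, the calls of Mal-A1, Mal-A6, Mal-A7, Mal-A8 and Mal-B1 held without any of the 48 arrays. That of Mal-A2 was lost in 21 cases, of Mal-A3 in 22, of Mal-A4 in 10 and of Amyrel in 3, with adjusted p up to 0.095, 0.08, 0.13 and 0.11; the 3 of Amyrel were arrays of line 362. On standard medium alone, where every title has a space, 7 of the 10 were called, against 48.6% of all probe sets; Mal-A4 (adjusted p = 0.061 with limma), Mal-B2 (0.12) and Amyrel (0.12) were not.

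Mal-A6, a maltase gene next to Mal-A7, had the widest range of the 10, with line 362 at its low end. The 6 arrays of that line read 8.41 and 8.39 on standard, 8.08 and 7.76 on ethanol and 7.95 and 9.06 on tomato medium, signals between 216 and 533. The arrays of the other 7 lines on standard medium lay between 10.25 and 11.93, signals of 1215 to 3909. No array of line 362 reached any array of another line on the same medium. The mean of line 362 was 8.27, that of the next lowest line, 859, was 10.57, and that of the highest, 786, was 12.02, so that the ends differed 13.4-fold (adjusted p = 2.1e-08 with limma). On standard medium alone the range was 3.29 log2 units (adjusted p = 3.9e-06). This range exceeded those of 98.7% of tested probe sets over all media and 97.6% on standard medium.

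The same line 362 stood highest of the 8 on standard medium for Mal-A1, Mal-A2, Mal-A3, Mal-A4, Mal-A7, Mal-A8 and Amyrel. On ethanol it was highest for Mal-A4 and Amyrel, and on tomato medium for Amyrel. Its low Mal-A6 thus did not extend to the neighbouring genes of the cluster. The gap between title forms was present in this line too: its hyphen-titled tomato array read 9.06 and its space-titled one 7.95 for Mal-A6, signals of 533 and 247, while the arrays of line 786 read 13.11 and 12.00. The array carries 1 probe set for Mal-A6, so a lower RNA level and weaker binding of the probes to the RNA of this line cannot be told apart.

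**Figure D4:**
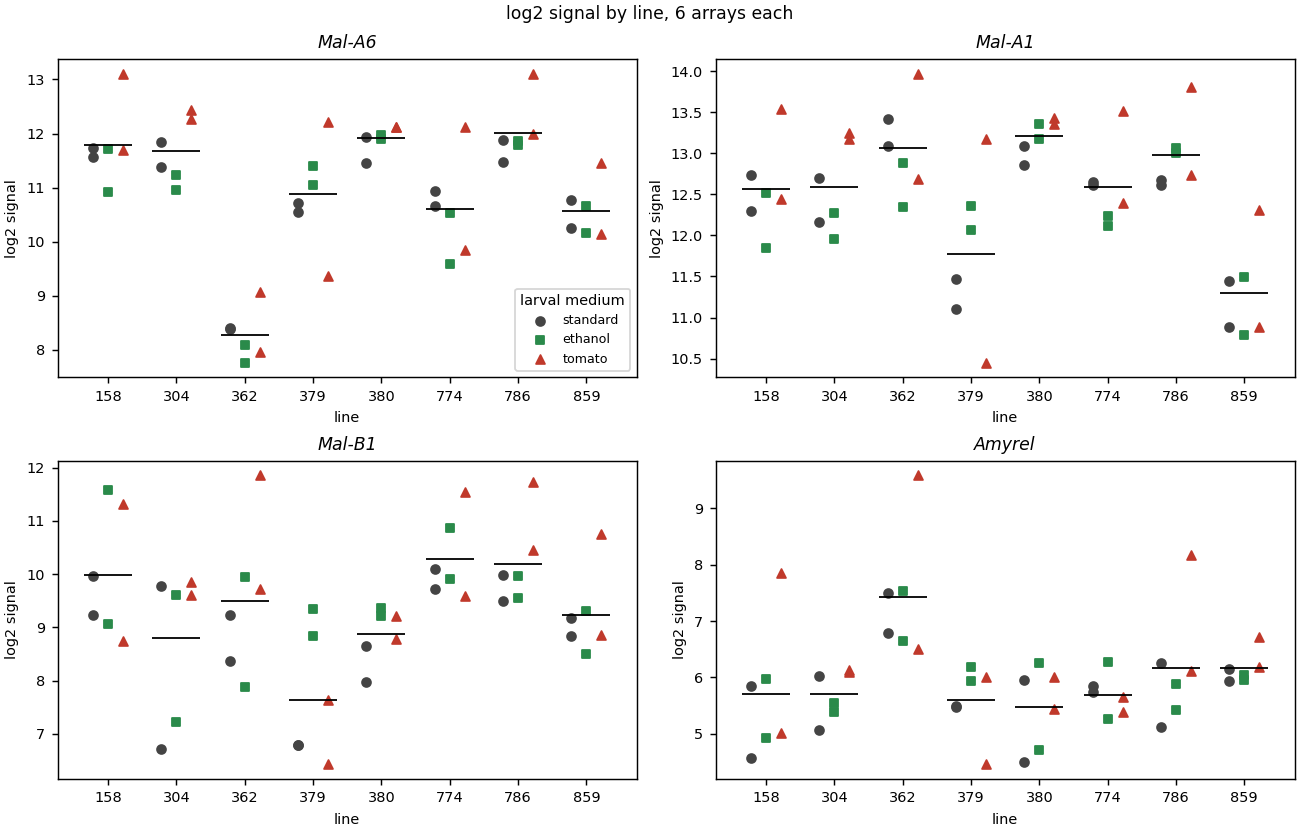
log2 signal (vertical axis) of Mal-A6, Mal-A1, Mal-B1 and Amyrel on the 6 arrays of each line (horizontal axis), with symbols for the larval medium and a bar at the mean of the line. Mal-A6 is low on all 6 arrays of line 362, Mal-A1 is low in line 859 on all media and in line 379 on standard medium, Mal-B1 is low in line 379 on standard and tomato medium, and Amyrel is highest in line 362.

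Mal-A1, the maltase gene at the end of the first cluster, split the lines into a low pair and the rest on standard medium. Its standard arrays read 10.89 and 11.44 in line 859 and 11.47 and 11.10 in line 379, while the other 6 lines lay between 12.16 and 13.42. The low pair did not overlap the others. Of the remaining neighbours in the order, lines 304, 158, 774 and 786 overlapped, line 380 lay above line 786, and lines 380 and 362 met at 13.09. On standard medium the ends, 11.16 in line 859 and 13.25 in line 362, differed 4.26-fold (adjusted p = 0.00013 with limma), and over all media lines 859 and 380 differed 3.75-fold (adjusted p = 0.00012).

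Mal-A7 and Mal-A8, neighbours in the cluster, ordered the lines alike at the low end. On standard medium Mal-A7 read 9.15 and 8.74 in line 379 and 9.35 and 10.04 in line 859, and 11.05 and 11.68 in line 362. Mal-A8 read 8.56 and 8.22 in line 379, 8.39 and 9.16 in line 859, 8.93 and 9.27 in line 774 and 9.79 or more in every array of the other 5 lines. The ends differed 5.35-fold for Mal-A7 (adjusted p = 0.0023 with limma) and 4.43-fold for Mal-A8 (adjusted p = 0.0026). Mal-A2 and Mal-A3 had narrower ranges, 2.59-fold and 3.09-fold, with adjusted p of 0.015 and 0.018. Mal-A3 was lowest in line 786 (8.31 and 8.36), which was among the higher lines for Mal-A2 (9.76 and 9.71). For Mal-A4 no pair of neighbouring lines was separated on standard medium, and line 304 alone spanned 8.63 to 10.88.

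Mal-B1, a maltase gene of the second cluster, was lowest in line 379 on standard medium, where its arrays read 6.80 and 6.79, signals of 112 and 111. Line 774 was highest, at 9.72 and 10.09, signals of 844 and 1086. The 2 values of line 379 are almost equal, while line 304 gave 9.78 and 6.72, so the lowest standard array belongs to another line, whose arrays were about as far apart as the line means. The ends differed 8.62-fold on standard medium (adjusted p = 0.031 with limma) and 6.25-fold over all media (adjusted p = 0.0033). The call on standard medium was lost without any 1 of 9 of the 16 arrays, namely both arrays of lines 379, 774, 786 and 859 and array 1 of line 158, with adjusted p up to 0.11, while that over all media held without any 1 of the 48. In line 304 the first array was also the higher one on ethanol, at 9.61 against 7.23, and its tomato arrays read 9.85 and 9.60. In line 379 Mal-B1 read 9.35 and 8.84 on ethanol, above both its standard and both its tomato arrays (6.43 and 7.64). Its neighbour Mal-B2 had a line range of 0.50 on standard medium, 10.33 in line 362 to 10.83 in line 786, wider than that of 13% of tested probe sets, and was not called over all media (adjusted p = 0.18).

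Amyrel was highest in line 362 on every medium. The arrays of that line read 6.79 and 7.50 on standard and 7.53 and 6.65 on ethanol, while the arrays of the other lines reached at most 6.26 on standard and 6.27 on ethanol medium. The line did not overlap the others on these media. Over all media its mean was 7.43, against 5.48 to 6.16 in the other 7 lines, and the ends differed 3.86-fold (adjusted p = 0.018 with limma). On standard medium the difference among lines was not called, and several lines had widely spaced arrays, such as 4.50 and 5.96 in line 380.

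No member showed a line by medium interaction, where 0% of probe sets were called. At an unadjusted p under 0.05 the count was 0 of 10, against 12.9% of all probe sets. The smallest p among the members was 0.49, for Mal-A3. The error of this test is the spread between the arrays of a combination, which on tomato medium includes the gap between title forms.

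The genes moved together from array to array. Between the arrays of a combination, all 10 differed in the same direction in 11 of the 24 combinations, and at least 9 did in 17. This held for 5 of 5 tomato pairs of mixed titles, with a median absolute difference of 1.73, but also for 2 of 8 standard pairs, where that difference was 0.46, and 3 of 8 ethanol pairs, where it was 0.35. Over the 24 combinations, the within-combination differences of the 10 genes correlated with Pearson r from 0.57 to 0.98, with a median of 0.83. Those of Mal-A6 with the other 6 first-cluster members had r from 0.84 to 0.98. The pairs share arrays, and tomato pairs supply the largest differences. How often 10 other probe sets move the same way was not computed, so this co-movement is not shown to be particular to the set. Mal-A5 had r from 0.02 to 0.26 with the 10.

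In the 24 combination means, which also hold the differences among lines, the 6 first-cluster members other than Mal-A6 had r from 0.64 to 0.95 with each other, with a median of 0.79. Mal-A7 and Mal-A8 were the closest pair, at 0.95. Mal-A6 had only -0.12 to 0.32 with those 6, and line 362 is at the opposite end of its order. Outside the set, the gene most like each member over the 24 means was Miox, an inositol oxygenase gene, for Mal-A1 (r = 0.90), CG34316 for Mal-A2 (0.86), Paics, a gene of purine synthesis, for Mal-A3 (0.82) and Mal-A4 (0.86), and Uxs, a UDP-xylose synthase gene, for Mal-A6 (0.88). It was acs for Mal-A7 (0.86), tobi, an alpha-glucosidase gene known as a target of insulin signalling, for Mal-A8 (0.88), Drep3 for Mal-B1 (0.86), CG3603 for Mal-B2 (0.87) and glob1, a haemoglobin gene, for Amyrel (0.88). These are the best among all tested probe sets with 1 symbol outside the set, and they share arrays and lines with the members.

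Other genes of carbohydrate handling did not pass between tomato and standard medium. Of 3 further starch and maltose enzymes tested, 0 were called: tobi differed by 0.53 (SE 0.22), and GCS2alpha, a glucosidase subunit that trims glycoproteins, by -0.09, beside Mal-A5. In the title pairs tobi was called, at 1.84 (SE 0.21, adjusted p = 0.0031 with limma), a gap within the range of the maltases. Of 7 sugar transport genes 0 were called. Tret1-1, a trehalose transporter gene, differed by 0.33 (SE 0.10), Tret1-2 by 0.32, sut2 by 0.20 and sut1 by -0.15. In the title pairs 1 of the 7 was called higher, Tret1-1 at 0.45 (SE 0.11), against 17.9% of all probe sets. Called lower were 2 of the 7, sut1 at -0.54 (SE 0.15) and Glut1 at -0.63 (SE 0.17), against 25.2%. These counts are near the shares over all probe sets. Glut1 and Akh below lie outside the rule for named genes and were chosen after their values were seen.

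Of 8 genes of trehalose, glycogen and hexose entry 0 were called. Hex-C, a hexokinase gene, came closest at 0.56 (SE 0.14, adjusted p = 0.057 with limma), followed by AGBE, the glycogen branching enzyme gene, at 0.33, Hex-A at 0.13 and Pgm1 at 0.12. In the title pairs 3 of the 8 were called higher, against 17.9% of all probe sets, among them Hex-C at 1.18 (SE 0.14). Of 9 sugar response regulators 0 were called. daw, an activin-like ligand gene that responds to sugar in the fly, differed by 0.66 (SE 0.19, adjusted p = 0.079), Mondo, the sugar-sensing transcription factor gene, by 0.06, its partner bigmax by 0.07 and AkhR, the adipokinetic hormone receptor gene, by 0.15. In the title pairs 2 of the 9 were called higher, against the same 17.9%: daw at 1.05 (SE 0.24) and Akh, the gene of the hormone that AkhR binds, at 0.77 (SE 0.17). Between tomato and ethanol medium, 1 of 19 midgut protease genes, Jon99Ci, was called higher, at 0.59 (SE 0.11, adjusted p = 0.034 with limma). In that comparison 0.107% of all probe sets were called.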

How the data were processed

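Labelled RNA of 48 samples was hybridised to Affymetrix Drosophila arrays. The deposited values are linear signal intensities. The authors computed them by MAS5 (version not stated), per the submitters' processing notes. On every array the mean after trimming 2% at each end was 500.009 to 500.016; the median signal was 84.2 to 160.2. Array number limits the precision. No arrays held identical values.

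Signals were floored at 1 and taken to log2. Of 18769 probe sets other than 183 controls, the 60% with the highest mean were tested. Names come from the platform annotation (13647 probe sets with 1 symbol, 402 with several and 4720 with none listed), and the RefSeq table, matched by gene number for 13544, gave names and gene order. The amylase genes Amy-p and Amy-d share a probe set and are not reported singly. limma 3.58.1 in R 4.3.3, with an intensity trend, compared media on the 24 combination means (14 residual degrees of freedom), lines and the interaction on the 48 arrays, lines on the 16 standard arrays, and title forms within the 5 tomato pairs. The procedure was tested on simulated data. A fold is 2 raised to the log2 difference, and SDs are over line means. Groups follow the titles.

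Named are the members, for each the most correlated other gene, and for each further list up to 4 genes with the smallest p between tomato and standard medium plus genes called between media. Members, lists and tests were chosen with earlier results of these data known. Alternatives were other normalisations, filters, a pseudocount of 32, no trend, single arrays, covariates, a replicate block, and lines or arrays left out. No sequences were used here.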

Additional observations from a re-analysis of the deposited data

Results flagged for a closer look

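Line 362 had values far from the other 7 lines in 5 of the 30 sets of 8 line means that 10 genes on 3 media give, by Dixon's criterion, for which the gap to the nearest line must exceed 0.526 of the range. Chance alone marks about 1 set in 20, and the media share their lines. For Mal-A6 the mean log2 signal of line 362 was lowest, at 8.40 on standard medium with the next line at 10.51, at 7.92 on ethanol with the next at 10.06, and at 8.50 on tomato medium with the next at 10.79. For Amyrel line 362 was highest, at 7.15 on standard medium with the next line at 6.04, and at 7.09 on ethanol with the next at 6.06.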

How the results depend on the processing

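The count of members called between tomato and standard medium, 1 in the comparison as reported, was the least stable value. It was 0 with no filter, with no intensity trend, with the title form or the eggshell level as a covariate, in space-titled arrays, with a replicate block by array number, without arrays of low eggshell level, and without line 158, 304, 362, 380, 774, 786 or 859. It was 2 on single arrays, 8 with the midgut protease level as a covariate (a fit on single arrays that called 2896 probe sets in all) and 10 without line 379 (a fit that called 2856). Leaving out 1 array at a time gave 0 to 10: 10 without the first tomato array of line 379, 7 without that of line 859 and 4 without tomato array 2 of line 158. The difference of Mal-A2 turned to -0.21 in space-titled arrays, -0.06 with the replicate block and -0.14 without arrays of low eggshell level. Every array numbered 3 or 4 has a hyphen in its title, and every space-titled tomato array is numbered 1 or 2. The replicate block thus largely repeats the title form and is not a separate check. The cause of the turn was not tested. Between tomato and ethanol medium the count was 1 with the eggshell covariate and 7 without line 379 (0 to 5 with 1 array left out), against 0 as reported. For lines over all media it was 5 to 10 with 1 array left out, the 5 coming without standard array 2 or ethanol array 1 of line 362, and 7 under quantile normalisation or median centring, where Mal-A2 and Mal-A3 were lost, against 9. The replicate block gave 10 there and 7 on standard medium. Same-numbered standard and ethanol arrays correlated above 0.1 in 3 of 7 lines (-0.56 to 0.63). So few and scattered values cannot settle whether the numbers pair the arrays. On standard medium the count was 6 to 9 with 1 array left out, and Mal-B1 lost its call in 9 of 16 such cases. The counts for ethanol against standard medium and for the interaction were 0 under every alternative run, and the 10 calls between title forms held under each, except that Amyrel was not tested among the upper 40% of probe sets. Signals near the filter limit the precision for Amyrel, and 2 arrays per combination limit it for all members.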
